A study of Rattus norvegicus with 60 samples.

Results

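Transcripts of 7 complement genes were followed through the ageing rat hippocampus: the C1q chain genes C1qa, C1qb and C1qc, the protease gene C1s, C4b, the C1 inhibitor gene Serping1, and C8g. Members were chosen by gene symbol, with earlier results of these data known. Each was matched by 1 probe, so that 7 of the 22523 probes on the array and 7 of its 16226 named genes were described. C4b is called C4-2 in the deposited table, and its near-identical neighbour C4a had no probe under that symbol, so signal from the pair may not have been separated. RNA came from F1 hybrids of Fischer 344 and Brown Norway rats (F344BN), taken as whole hippocampus or as the subregions CA1, CA3 and dentate gyrus (DG). Adult rats were 12 months old, and aged rats were 24 months old and labelled Intact or Impaired; the labels used here give neither the test behind that division nor which arrays came from the same animal. Of the 60 arrays, 12 came from each subregion, with 4 for each of the 3 groups, and 24 from whole hippocampus, where 6 were adult, 9 intact and 9 impaired. No group carried a transgene or a drug treatment in the labels.

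The classical pathway of complement starts when C1q binds a surface or an antibody and activates the proteases C1r and C1s, which cleave C4 and then C2. C1 inhibitor inactivates C1r and C1s, and C8 belongs to the membrane attack complex that closes the cascade. In rodent brain C1q is made mainly by microglia, and in mice it marks synapses that microglia remove during development.

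Promoter sequences are shown for the members found in the set of RefSeq promoter windows used here (GRCr8 build). C1qc, C1s, Serping1 and C8g were not in that set. The sequences are given because C1qa and C1qb lie close to each other on chromosome 5 and their signals moved together across arrays, as described further on. Of the 7 members, 3 matched: C1qb at chr5:154407828-154408077 on the minus strand, C1qa at chr5:154419934-154420183 on the minus strand, and C4b at chr20:4201729-4201978 on the plus strand. Each run is the 250 bases before the annotated start, read 5′ to 3′, with the letters of 4 searched motifs in capitals.
C1qb: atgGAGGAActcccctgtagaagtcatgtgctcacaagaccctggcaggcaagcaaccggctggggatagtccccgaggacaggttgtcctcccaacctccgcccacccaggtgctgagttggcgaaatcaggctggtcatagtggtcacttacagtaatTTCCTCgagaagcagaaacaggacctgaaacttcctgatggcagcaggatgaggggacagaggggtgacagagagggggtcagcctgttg
C1qa: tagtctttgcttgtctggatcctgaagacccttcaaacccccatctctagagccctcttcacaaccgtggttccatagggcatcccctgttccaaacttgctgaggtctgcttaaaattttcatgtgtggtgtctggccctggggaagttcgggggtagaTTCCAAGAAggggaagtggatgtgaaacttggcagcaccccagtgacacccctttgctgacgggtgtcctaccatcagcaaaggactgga
C4b: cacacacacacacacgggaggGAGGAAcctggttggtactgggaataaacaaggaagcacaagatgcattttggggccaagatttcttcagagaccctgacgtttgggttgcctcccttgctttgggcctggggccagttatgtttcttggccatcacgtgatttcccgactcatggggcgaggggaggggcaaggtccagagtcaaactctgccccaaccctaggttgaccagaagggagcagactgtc
The letters GAGGAA, a form of the sites bound by ETS factors such as the myeloid factor PU.1, were found in the C1qb window. They lay at position -247 on the printed strand and at -90 on the opposite strand, counted from the start. Other forms of ETS sites were not searched. The C4b window held GAGGAA at -229. The C1qa window held no GAGGAA and held TTCNNNGAA, a spacing that STAT factors bind, at -90. Among 33469 RefSeq windows of this length, on both strands, GAGGAA was present in 23.3% and TTCNNNGAA in 7.67%. Neither the interferon-stimulated element (3.41% of windows) nor TATAAA, the TATA box (12.9%), was found in these 3 windows, and no matches overlapped.

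Signals are given as log2 values after background correction and quantile normalization over all arrays, and a difference of 1 is a doubling on that scale. A probe counted as detected on an array when its detection p was under 0.01. On 59 arrays 40.6 to 47.2% of probes were detected, and on CA1 adult replicate 4 it was 22.2%. That array's highest correlation with any other array was 0.766. Age differences of the members in CA1 are therefore given with and without it, while gene list results are given with all arrays. Whole hippocampus impaired replicate 5 also stood apart, in C1q and C4b signal. Age differences of those genes in whole hippocampus are given with and without that array. That omission was chosen after seeing these same values, so calls made without the array are description only. The microglial marker Aif1, the astrocyte marker Gfap and the neuronal marker Snap25 were detected on 60 of 60 arrays, and Cx3cr1, another microglial marker, on 22.

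**Figure D1:**
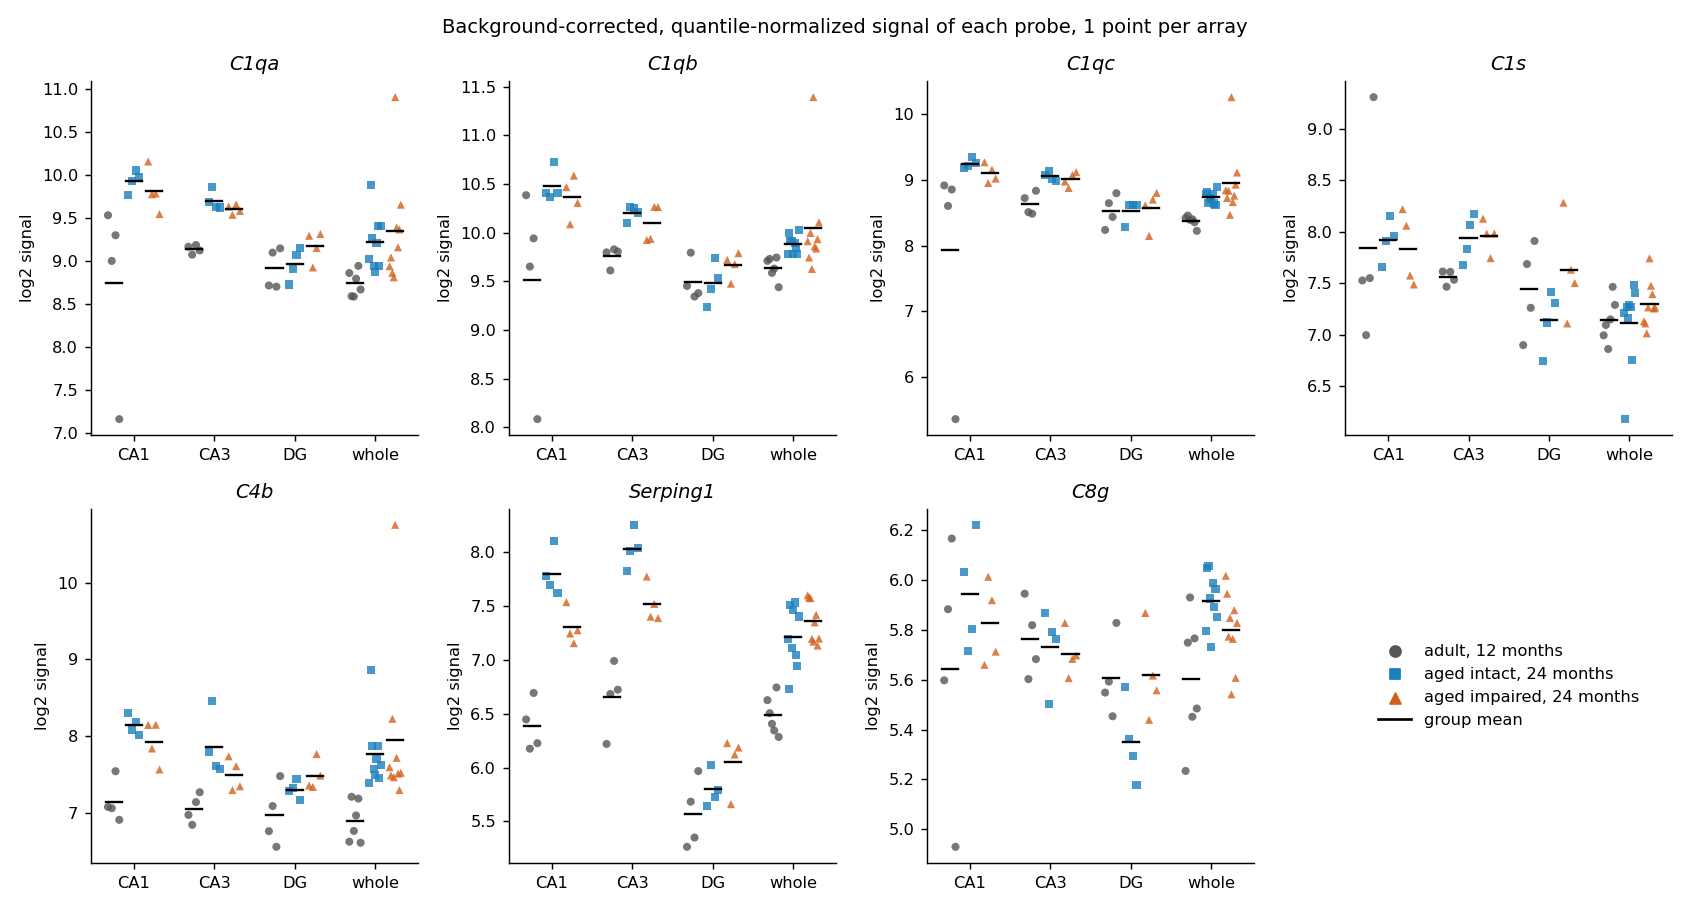
Log2 signal (y axis) of each of the 7 members in CA1, CA3, DG and whole hippocampus (x axis), with 1 point per array coloured by group and a line at each group mean. Serping1 in CA1 and CA3 shows adult, impaired and intact arrays at 3 separate heights, while 1 adult array in CA1 lies far below the others for C1qa, C1qb and C1qc.

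With age, complement transcripts were higher in CA3 and, for Serping1, in CA1 and whole hippocampus. In CA3 4 of the 7 members (C1qa, C1qb, C1qc and Serping1) were called higher in aged than adult arrays at an adjusted p under 0.05. Of the 9873 tested CA3 probes, 0.78% were called higher. The members were chosen with earlier results of these data known, so the shares of all probes are given for scale only. Serping1 alone was called in CA1, where the share of all probes called higher was 0.0501%, and in whole hippocampus, where it was 0.289%. None of the 7 was called in DG, where 0.0296% of probes were, and at an unadjusted p under 0.05 there were 2, C4b and Serping1, where 2.42% of all DG probes were. The median aged-minus-adult difference of the 7 members was 0.90 in CA1, 0.39 in CA3, 0.08 in DG and 0.47 in whole hippocampus. Without adult replicate 4 the CA1 median was 0.52, and without impaired replicate 5 that of whole hippocampus was 0.39. Over all tested probes the median was 0.06, 0.00, 0.02 and -0.01 in the same order. In bulk tissue more cells of a type and more RNA per cell cannot be told apart.

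C1qa, which encodes the A chain of C1q, had log2 signals of 9.16, 9.07, 9.19 and 9.12 on the 4 adult CA3 arrays. Intact CA3 arrays read 9.69, 9.86, 9.63 and 9.62, and impaired ones 9.63, 9.54, 9.66 and 9.58. All 8 aged arrays were thus above all 4 adult arrays, an arrangement found in 1.65% of CA3 probes. The aged-minus-adult difference was 0.51 ± 0.06 (SE), a 1.43-fold rise with an adjusted p of 0.00108.

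C1qb, the B chain gene, read 9.80, 9.61, 9.83 and 9.81 in adult CA3, 10.10, 10.26, 10.25 and 10.21 in intact CA3, and 9.92, 9.94, 10.27 and 10.26 in impaired CA3. Every aged array was again above every adult array. Its difference was 0.39 ± 0.08 with an adjusted p of 0.043. Leaving out any of 9 of the 12 CA3 arrays ended this call, with adjusted p up to 0.126; the call stood without intact replicate 1 and without impaired replicates 1 and 2.

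C1qc, the C chain gene, read 8.72, 8.51, 8.48 and 8.83 in adult CA3, 9.07, 9.13, 9.02 and 8.99 in intact CA3, and 8.97, 8.88, 9.07 and 9.12 in impaired CA3. The lowest aged array, at 8.88, lay just above the highest adult array, at 8.83. The difference was 0.39 ± 0.08 with an adjusted p of 0.0284. Leaving out adult replicates 1, 2 or 3, intact 1 or 2, or impaired 3 or 4 ended the call, with adjusted p up to 0.104.

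In CA1 the 3 C1q genes had larger differences than in CA3 but were not called, and 1 adult array read far below the other 3. The 4 adult CA1 arrays read 9.53, 9.00, 9.30 and 7.16 for C1qa, 10.38, 9.65, 9.94 and 8.08 for C1qb, and 8.91, 8.60, 8.85 and 5.36 for C1qc. In each case the lowest value is replicate 4, the array with few detected probes, on which C1qa and C1qc were not detected. The 8 aged CA1 arrays ran from 9.55 to 10.16 for C1qa, from 10.09 to 10.73 for C1qb and from 8.95 to 9.34 for C1qc. Aged arrays were above all adult arrays for C1qa and C1qc, and C1qb overlapped because adult replicate 1 read 10.38; 0.762% of CA1 probes were fully separated in this way.

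With all 12 CA1 arrays the aged-minus-adult differences were 1.13 ± 0.36 for C1qa, 0.90 ± 0.34 for C1qb and 1.24 ± 0.55 for C1qc, each with an adjusted p of 0.63. Without adult replicate 4 they were 0.60 ± 0.14, 0.43 ± 0.15 and 0.38 ± 0.10, with adjusted p of 0.168, 0.186 and 0.168. On that array Aif1 read 11.72, above the 10.59 to 11.05 of the other 3 adult arrays, while the C1q genes read low. The oligodendrocyte markers on it averaged 8.67 against 10.08 to 10.18 on the other 3, and the neuronal markers 9.90 against 10.56 to 10.90. The part of these features in the C1q values was not tested.

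In DG the C1q genes showed no separation by age. C1qa read 8.71, 9.10, 8.70 and 9.15 in adult DG, and its 8 aged arrays ran from 8.72 to 9.31. The differences were 0.15 ± 0.13 for C1qa, 0.08 ± 0.12 for C1qb and 0.02 ± 0.14 for C1qc, with 95% intervals reaching up to 0.43, 0.34 and 0.33. Across all probes, 0.158% had every aged DG array above every adult array, and no member was among them.

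In whole hippocampus C1qc separated the ages completely. Adult arrays had a lowest, median and highest value of 8.22, 8.39 and 8.46, intact arrays 8.62, 8.72 and 8.90, and impaired arrays 8.47, 8.83 and 10.26. All 18 aged arrays exceeded all 6 adult arrays, narrowly at the nearest point; 0.174% of whole hippocampus probes did so. C1qa ran from 8.58 to 8.94 in adult arrays, with medians of 8.73 in adult, 9.21 in intact and 9.16 in impaired arrays, and 12 of 18 aged arrays were above every adult array. C1qb had medians of 9.67, 9.90 and 9.91 in the same order, with 16 of 18 aged arrays above the adult range.

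The whole hippocampus differences were 0.54 ± 0.18 for C1qa, 0.32 ± 0.15 for C1qb and 0.47 ± 0.14 for C1qc, with adjusted p of 0.492, 0.819 and 0.336. Impaired replicate 5 read 10.91, 11.39 and 10.26 for these genes, more than 1 log2 unit above the next impaired array for each. Without it, an omission chosen after seeing these values, the differences were 0.45 ± 0.12, 0.24 ± 0.06 and 0.39 ± 0.07. In that fit C1qc was called with an adjusted p of 0.00476. Aif1 on that array read 11.85 against 10.58 to 10.98 on the other 8 impaired arrays, and the 11 tested microglial markers averaged 8.88 against 8.17 to 8.44. Their part in the C1q values was not tested.

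**Figure D2:**
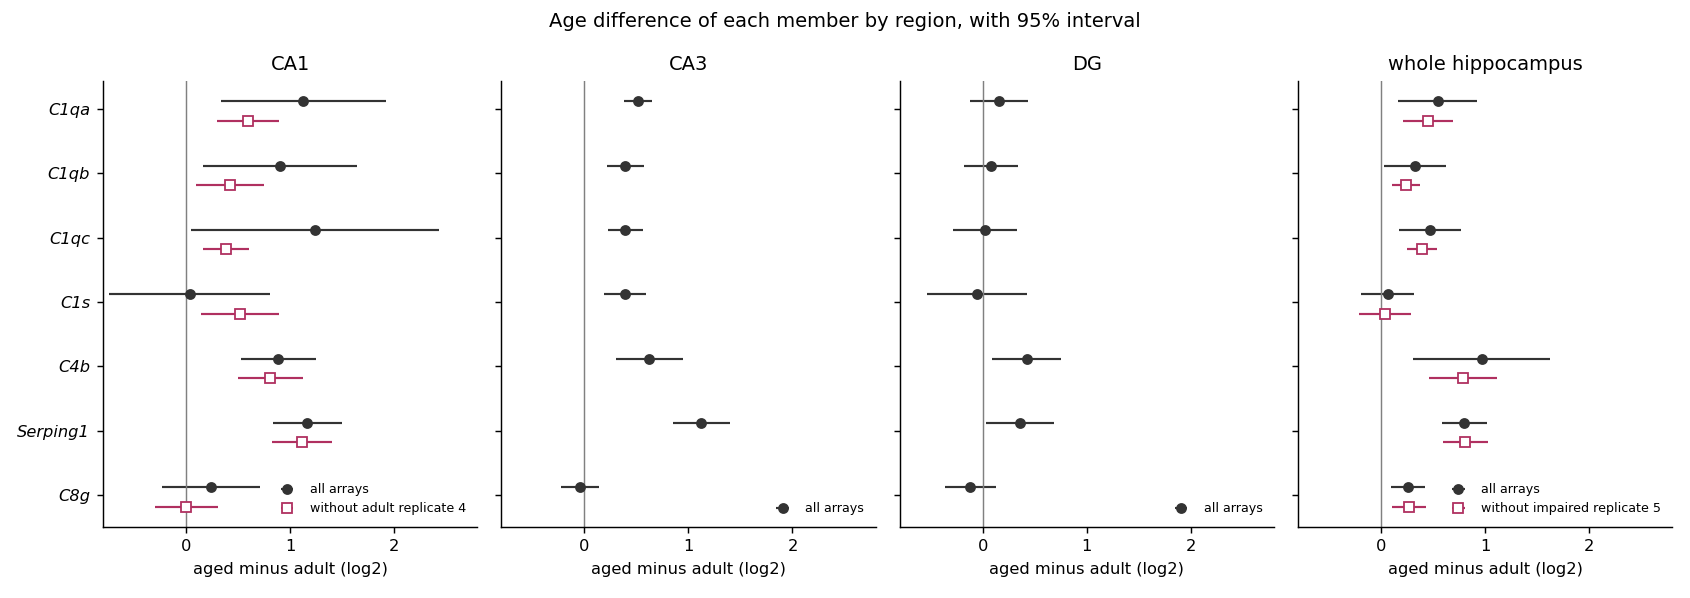
Aged minus adult log2 difference (x axis) with its 95% interval for each of the 7 members (y axis) in CA1, CA3, DG and whole hippocampus. Open squares leave out CA1 adult replicate 4 or whole hippocampus impaired replicate 5; without the CA1 array the C1qc difference goes from 1.24 to 0.38, and its interval becomes narrower.

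C1s, the protease that cleaves C4, was not called in any region. In CA3 it read 7.61, 7.47, 7.61 and 7.53 on adult arrays, 7.68, 7.84, 8.06 and 8.17 on intact arrays and 8.13, 7.98, 7.74 and 7.98 on impaired arrays. Although all 8 aged arrays lay above the adult range, the difference of 0.39 ± 0.10 had an adjusted p of 0.0764. In CA1 the difference was 0.03 ± 0.35, and adult replicate 4 read 9.31, above every other CA1 array. Without that array the CA1 difference was 0.52 ± 0.17 with an adjusted p of 0.178. DG gave -0.05 ± 0.22 and whole hippocampus 0.06 ± 0.12, with adult and aged ranges overlapping in both.

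C4b, whose product is split by C1s and attaches to the target surface, was separated by age in CA1, CA3 and whole hippocampus. In CA1 the adult arrays read 7.07, 7.06, 7.54 and 6.91, the intact arrays 8.30, 8.07, 8.19 and 8.02, and the impaired arrays 8.14, 7.84, 8.14 and 7.56. All aged arrays were above all adult arrays, with the lowest impaired array (7.56) just above the highest adult one (7.54). The CA1 difference was 0.89 ± 0.17 with an adjusted p of 0.234, and 0.81 ± 0.14 with an adjusted p of 0.0536 when adult replicate 4, where C4b was not detected, was left out.

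In CA3 C4b read 6.97, 6.84, 7.14 and 7.26 on adult arrays, 7.79, 8.45, 7.61 and 7.57 on intact arrays and 7.73, 7.29, 7.61 and 7.34 on impaired arrays. The difference of 0.62 ± 0.15 had an adjusted p of 0.0763; leaving out intact replicate 2, the highest array, gave 0.52 and an adjusted p of 0.0344. In DG adult arrays read 6.76, 7.08, 6.55 and 7.47 and the 8 aged arrays ran from 7.16 to 7.76. Only 2 aged DG arrays were above the highest adult array, and the difference of 0.42 ± 0.15 had an unadjusted p of 0.0166 and an adjusted p of 1.00.

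In whole hippocampus C4b had a lowest, median and highest value of 6.61, 6.86 and 7.21 in adult arrays, 7.38, 7.62 and 8.86 in intact arrays and 7.29, 7.52 and 10.75 in impaired arrays. All 18 aged arrays were above all 6 adult arrays. The difference of 0.96 ± 0.32 nevertheless had an adjusted p of 0.446, in a fit that included impaired replicate 5 at 10.75. Without that array, an omission chosen after seeing these values, it was 0.79 ± 0.16, a 1.72-fold difference with an adjusted p of 0.0153.

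Serping1, whose product C1 inhibitor blocks C1r and C1s, was the member called in the most regions. Adult CA1 arrays read 6.45, 6.17, 6.69 and 6.23, intact arrays 7.78, 7.70, 8.11 and 7.62, and impaired arrays 7.54, 7.25, 7.16 and 7.28. Adult and aged arrays did not overlap. The aged-minus-adult difference in CA1 was 1.17 ± 0.15, a 2.24-fold rise with an adjusted p of 0.0162. Without adult replicate 4 the difference was 1.11 ± 0.13 with an adjusted p of 0.0022. Serping1 was detected on 3 of 4 adult CA1 arrays. The call was lost when any of 6 CA1 arrays was left out (adult replicates 1 and 2, intact 1, and impaired 1, 2 and 4), with adjusted p up to 0.101 and differences between 1.10 and 1.27 over all 12 omissions.

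Adult CA3 arrays read 6.22, 6.68, 6.99 and 6.72 for Serping1, intact arrays 7.83, 8.02, 8.25 and 8.04, and impaired arrays 7.77, 7.40, 7.52 and 7.39. Every aged array exceeded every adult array. The difference was 1.12 ± 0.13, a 2.18-fold rise with an adjusted p of 0.000577, and it was called in each of the 12 fits that left out 1 array.

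In DG Serping1 was near the detection limit: 1 of 4 adult arrays, 4 of 4 intact arrays and 3 of 4 impaired arrays detected it. Adult arrays read 5.26, 5.68, 5.35 and 5.97, intact arrays 5.64, 6.02, 5.73 and 5.79, and impaired arrays 6.23, 5.66, 6.12 and 6.19. The groups overlapped, and the difference of 0.36 ± 0.15 had an unadjusted p of 0.0333 and an adjusted p of 1.00.

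Whole hippocampus gave Serping1 values with a lowest, median and highest of 6.28, 6.46 and 6.74 in adult arrays, 6.73, 7.19 and 7.53 in intact arrays and 7.13, 7.35 and 7.60 in impaired arrays. Of 18 aged arrays 17 were above every adult array, and the exception, at 6.73, lay just below the highest adult array. The difference was 0.80 ± 0.10, a 1.74-fold rise with an adjusted p of 6.6e-05, and it was called in each of the 24 fits that left out 1 array. Within the 2 array slides that carried this tissue it was 0.83 ± 0.15 and 0.79 ± 0.14, with adjusted p of 0.087 and 0.149. Impaired replicate 5, the highest array for C1q and C4b, read 7.17 for Serping1, inside the range of the other impaired arrays.

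C8g, the lipocalin-like gamma chain of C8, was near the detection limit throughout: in whole hippocampus it was detected on 9 of 9 intact, 7 of 9 impaired and 3 of 6 adult arrays, and in each subregion group at most 3 of 4 arrays did. The aged-minus-adult differences were 0.24 ± 0.21 in CA1, -0.04 ± 0.08 in CA3 and -0.12 ± 0.12 in DG. Without adult replicate 4, where C8g read 4.93 and was not detected, the CA1 difference was 0.0024 ± 0.14. In whole hippocampus it was 0.26 ± 0.08 with an adjusted p of 0.371, and 6 of 18 aged arrays were above the adult range of 5.23 to 5.93.

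The aged groups were also set against the same adult arrays one at a time. For intact rats Serping1 was called in CA1, where 0.0501% of probes were called higher, and in whole hippocampus, where 0.222% were. In CA3 5 members were called for intact rats against 0.982% of probes: C1qa (0.56), C1qb (0.44), C1qc (0.41), C4b (0.80) and Serping1 (1.38). For impaired rats C1qa (0.47) and Serping1 (0.87) were called in CA3, where 0.172% of probes were called higher, and Serping1 in whole hippocampus, where 0.241% were. No member was called for impaired rats in CA1 (0.0301% of probes), and in DG none was called for either aged group (0.0296% of probes for each). Both comparisons share the adult arrays. Of the CA3 calls, only those of C1qa and Serping1 for intact rats stood without each of the 12 arrays in turn. The CA1 call for intact rats was lost without intact replicate 1 or 3, and C4b was called there without adult replicate 4. In whole hippocampus without impaired replicate 5, C1qc (0.36, adjusted p of 0.0365) and C4b (0.86, adjusted p of 0.0217) were also called for intact rats. For impaired rats C1qc (0.42, adjusted p of 0.0113) was also called. That omission was chosen after seeing the data.

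Impaired and intact rats were then compared directly. No member was called in any region, and no probe at all was (0% of tested probes in each of the 4 regions). At an unadjusted p under 0.05 limma gave 33 probes in CA1 (0.331% of those tested), 500 in CA3 (5.06%), 196 in DG (1.93%) and 600 in whole hippocampus (5.79%). Serping1 was the only member among them, in CA1 and CA3. The CA1 fit took its spread from all 3 groups, adult replicate 4 included, so few CA1 probes there does not show that CA1 lacks a difference. The median impaired-minus-intact difference of the 7 members was -0.12 in CA1, -0.10 in CA3, 0.20 in DG and 0.15 in whole hippocampus, and the corresponding medians of all probes lay within 0.01 of 0. Without impaired replicate 5 the whole hippocampus median was -0.0057.

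Serping1 was lower in impaired than in intact arrays of both CA1 and CA3 without overlap. The intact CA1 arrays ran from 7.62 to 8.11 and the impaired ones from 7.16 to 7.54. In CA3 the intact arrays ran from 7.83 to 8.25 and the impaired ones from 7.39 to 7.77. Every impaired array lay below every intact array for 1.55% of probes in CA1 and 2.46% in CA3. The differences were -0.50 ± 0.18 (unadjusted p of 0.0158, adjusted p of 1.00) and -0.51 ± 0.15 (unadjusted p of 0.00344, adjusted p of 0.936), so neither passed the test. Without adult replicate 4, whose spread enters the CA1 fit, limma gave a CA1 difference of -0.50 ± 0.14 (unadjusted p of 0.00346, adjusted p of 0.841). In DG Serping1 differed by 0.25 ± 0.17 and in whole hippocampus by 0.15 ± 0.10, both towards higher values in impaired arrays. Whether the regions differ in this contrast was not tested.

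Ttr, the transthyretin gene that marks choroid plexus, was also lower in impaired arrays where Serping1 was, by a difference of -1.55 ± 0.64 in CA1 and -0.99 ± 0.40 in CA3, neither called. In DG, where Serping1 read higher in impaired arrays, the Ttr difference was -1.11 ± 0.53, and in whole hippocampus, where Serping1 also read higher, it was -0.38 ± 0.57. The other choroid plexus marker tested differed by -0.016 in CA1, 0.14 in DG and 0.11 in whole hippocampus. Of 12 choroid plexus markers on the array 2 were tested in CA1 and 1 in CA3, and their mean level ran from 6.76 to 7.33 in intact and 5.94 to 6.78 in impaired CA1. In CA3 it ran from 7.54 to 8.59 in intact and from 6.45 to 7.70 in impaired arrays. The 7 tested meningeal markers had a median impaired-minus-intact difference of -0.13 in CA1 and -0.22 in CA3, with mean levels of 7.72 to 8.02 in intact and 7.59 to 7.80 in impaired CA1, and of 7.84 to 8.01 and 7.75 to 7.90 in CA3. The part of either tissue in the Serping1 values was not tested.

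**Figure D3:**
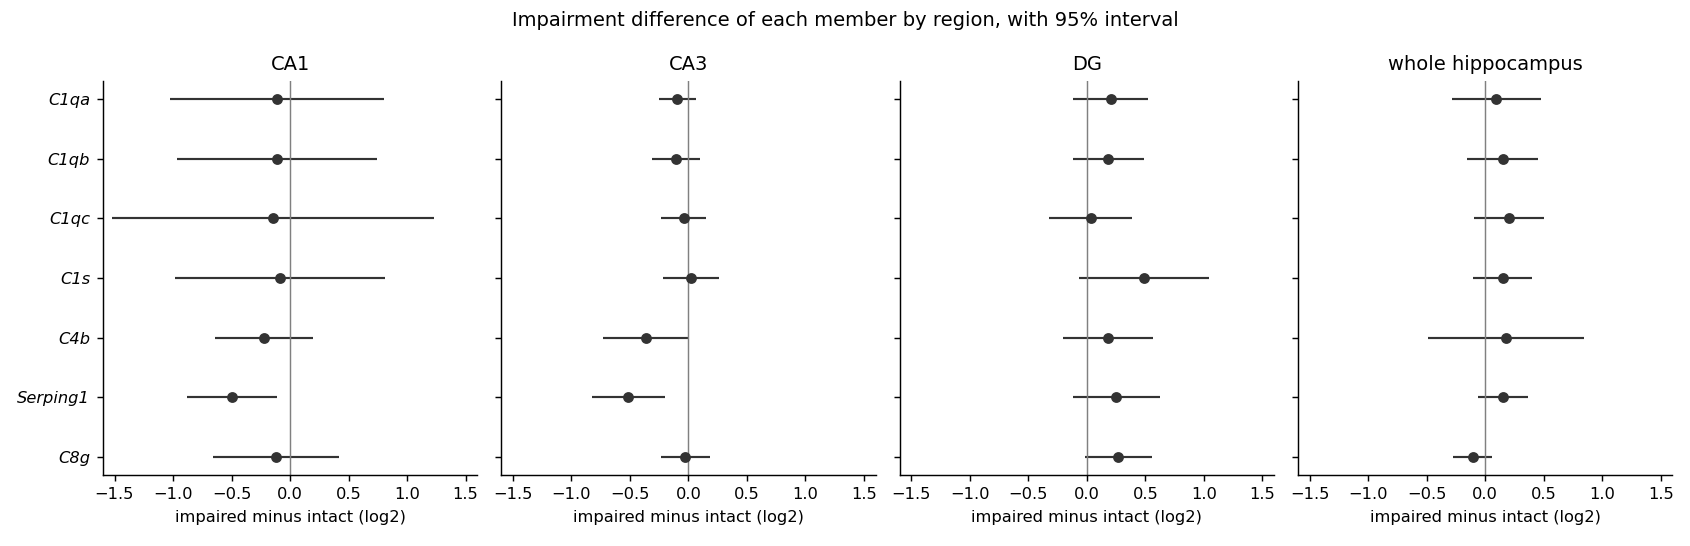
Impaired minus intact log2 difference (x axis) with its 95% interval for each of the 7 members (y axis) in CA1, CA3, DG and whole hippocampus. The Serping1 intervals lie below 0 in CA1 (-0.88 to -0.11) and CA3 (-0.83 to -0.20), and all other intervals shown include 0.

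The size of the age difference was compared between CA1, CA3 and DG in 1 fit that took these 36 arrays as independent. The region-by-age F test called none of the 7 members, and 0.00915% of 10927 probes, which is 1 probe; 754 probes had an unadjusted p under 0.05. Serping1 had the smallest p of the members (unadjusted p of 0.000543, adjusted p of 0.495), with age differences larger by 0.81 ± 0.21 in CA1 than DG and by 0.77 in CA3 than DG, and by 0.04 ± 0.21 in CA1 than CA3. In adult DG Serping1 was detected on 1 of 4 arrays, near the detection limit, which limits what its DG difference can show. The C1qa difference was larger by 0.61 ± 0.33 in CA1 than CA3, and by 0.08 ± 0.16 without CA1 adult replicate 4. For C1qc the same step went from 0.85 ± 0.49 to -0.01 ± 0.16.

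Levels in adult tissue are given by region, but region could not be told apart from array slide, since each subregion had a slide of its own. Mean adult signals of C1qa were 9.14 ± 0.05 (SD, n = 4) in CA3, 8.91 ± 0.24 (SD, n = 4) in DG, 8.75 ± 1.08 (SD, n = 4) in CA1 and 8.74 ± 0.15 (SD, n = 6) in whole hippocampus. Without replicate 4, an omission chosen after seeing the data, the CA1 mean was 9.28 ± 0.27 (SD, n = 3), which put CA1 first, and C1qb and C1qc then also had their highest mean in CA1 (9.99 ± 0.37 and 8.79 ± 0.17, SD, n = 3). With all arrays, neighbours in the order overlapped for every member, with 1 exception. Serping1 had means of 6.65 ± 0.32 (SD, n = 4) in CA3, 6.49 ± 0.18 (SD, n = 6) in whole hippocampus, 6.38 ± 0.24 (SD, n = 4) in CA1 and 5.57 ± 0.32 (SD, n = 4) in DG, and the DG range lay below the CA1 range. Regions that were not neighbours could be separate. Adult C1qa ran from 9.073 to 9.185 in CA3 and from 8.585 to 8.942 in whole hippocampus. Adult C1qc ran from 8.484 to 8.834 and from 8.223 to 8.457 in these regions. C1s in CA3 also lay above whole hippocampus, narrowly.

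Other genes of the pathway were read from lists chosen with earlier results known. Of 20 further cascade components 17 were on the array and 6 or 7 were tested per region, and none was called for age. In CA3 6 of 6 had differences above 0, with a median of 0.31 against 0.00 over all probes: C1r, the protease that activates C1s, differed by 0.33 (adjusted p of 0.115), C2, the other substrate of C1s, by 0.29 (adjusted p of 0.113), and Cfb, the alternative pathway protease, by 0.38 (adjusted p of 0.15). In whole hippocampus 5 of 6 were above 0 with a median of 0.19, in DG 3 of 7 with a median of -0.03, and in CA1 1 of 7 with a median of -0.13. Over all tested probes, 4993 of 9873 were above 0 in CA3 and 4925 of 10370 in whole hippocampus. In DG 5622 of 10152 were, and in CA1 5673 of 9978. CA1 adult replicate 4 averaged 8.28 over the cascade genes against 6.90 to 7.18 on the other 3 adult arrays. Intact CA1 arrays averaged 7.23 to 7.36 and impaired ones 6.98 to 7.20.

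Among complement regulators 11 were tested in each region and none was called for age, with medians between -0.04 and 0.00. Among receptors and binding proteins for complement 1 was called, Itgb2, 1 of 7 tested in CA3, where 0.78% of probes were called higher. Itgb2, the beta chain of complement receptor 3, was higher in aged CA3 arrays by 0.52 ± 0.09 with an adjusted p of 0.0106. Its partner Itgam differed by 0.38 ± 0.10 in CA3 with an adjusted p of 0.125. Among 6 tested genes that share the C1q domain without belonging to complement, C1qtnf9 was higher by 0.74 ± 0.09 in CA3 (adjusted p of 0.000669) and by 0.53 ± 0.09 in whole hippocampus (adjusted p of 0.00349). Of all whole hippocampus probes, 0.289% were called higher.

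Markers of microglia were also higher in aged CA3. There 10 of 10 tested markers were above 0 with age, as were 4993 of 9873 probes. The 4 called were Cd68 (0.82), Trem2 (0.52), Laptm5 (0.50) and Tyrobp (0.36), where 0.78% of probes were called higher. The mean level of the 10 markers ran from 8.48 to 8.52 in adult, 8.89 to 9.01 in intact and 8.74 to 8.84 in impaired CA3. Aif1 differed by 0.34 ± 0.08 (adjusted p of 0.0764) in CA3 and by -0.08 ± 0.15 in DG, and Csf1r was not matched to a probe. In DG 8 of 9 markers were above 0, against 5622 of 10152 probes, and none was called. Mean levels of the markers there were 8.27 to 8.85 in adult, 8.53 to 8.70 in intact and 8.56 to 8.86 in impaired arrays. In CA1 9 of 12 were above 0, against 5673 of 9978 probes, and none was called. CA1 adult replicate 4 averaged 8.37 over these 12 markers, against 8.05 to 8.26 on the other adult CA1 arrays. Intact CA1 arrays averaged 8.35 to 8.63 and impaired ones 8.35 to 8.51. In whole hippocampus 11 of 11 markers were above 0, against 4925 of 10370 probes. Trem2 (0.37) was called there, where 0.289% of probes were called higher. The part of microglial number or state in the C1q values was not tested.

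Among astrocyte markers Gfap, the intermediate filament gene, was called higher by 0.68 ± 0.08 in CA3 and 0.45 ± 0.08 in whole hippocampus. Of all probes, 0.78% and 0.289% were called higher in these regions. In CA1, where Serping1 was also called, every aged array read above every adult array for Gfap, without a call. That arrangement was found in 0.762% of CA1 probes. Gfap ran from 11.881 to 13.355 in adult, 13.635 to 13.888 in intact and 13.512 to 13.913 in impaired CA1. Adult replicate 4 gave the lowest value, and the remaining adult CA1 arrays ran from 13.256 to 13.355. In DG the Gfap ranges of adult and aged arrays overlapped. No astrocyte marker was called in CA1 or DG. The list's mean level in CA3 ran from 11.17 to 11.30 in adult, 11.28 to 11.43 in intact and 11.31 to 11.41 in impaired arrays, with 5 of 10 tested markers above 0. The part of astrocytes in the Serping1 values was not tested. Among the remaining marker lists, Ogn, a meningeal fibroblast marker, was higher by 0.45 in aged CA3 (adjusted p of 0.0471), Igf2, another, fell by 0.66 in whole hippocampus (adjusted p of 0.0316), and the neuronal gene Syn1 fell by 0.37 in CA3 (adjusted p of 0.0471).

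Across the 24 whole hippocampus arrays C1qa, C1qb, C1qc and C4b varied together. After centring within group and slide, C1qb and C1qc had a Pearson r of 0.97 and a Spearman rho of 0.86, and r was 0.87 without the 2 arrays farthest from the C1qb median. Both permutation p were 1e-05, the smallest that 100000 resamples can give, and adjusted over the 21 pairs computed they were 7e-05 and 0.000105. C1qb and C4b had r of 0.92 and rho of 0.82 with the same permutation p, and r of 0.72 without 2 arrays. Within the 2 slides r was 0.73 and 0.99 for C1qb with C1qc, and 0.68 and 0.97 for C1qb with C4b, the second slide being the one with impaired replicate 5. On the first slide the other pairs were weaker or alike, with r of 0.43 for C1qa with C1qb, 0.27 for C1qa with C1qc, 0.41 for C1qc with C4b and 0.70 for C1qa with C4b. C8g gave r between -0.26 and 0.02 with the other 6 members, with adjusted p of 0.545 or more. Serping1 gave r of -0.01 and rho of 0.21 with C1qb (permutation p of 0.981 and 0.313, adjusted p of 0.981 and 0.793), and r of -0.17 and rho of -0.01 with C4b (permutation p of 0.43 and 0.956, adjusted p of 0.602 and 0.956). C1s and Serping1 had r of 0.52 and rho of 0.39 (permutation p of 0.00837 and 0.0573, adjusted p of 0.0251 and 0.172), but r was 0.17 without intact replicates 2 and 7, so that relation rests on those arrays.

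**Figure D4:**
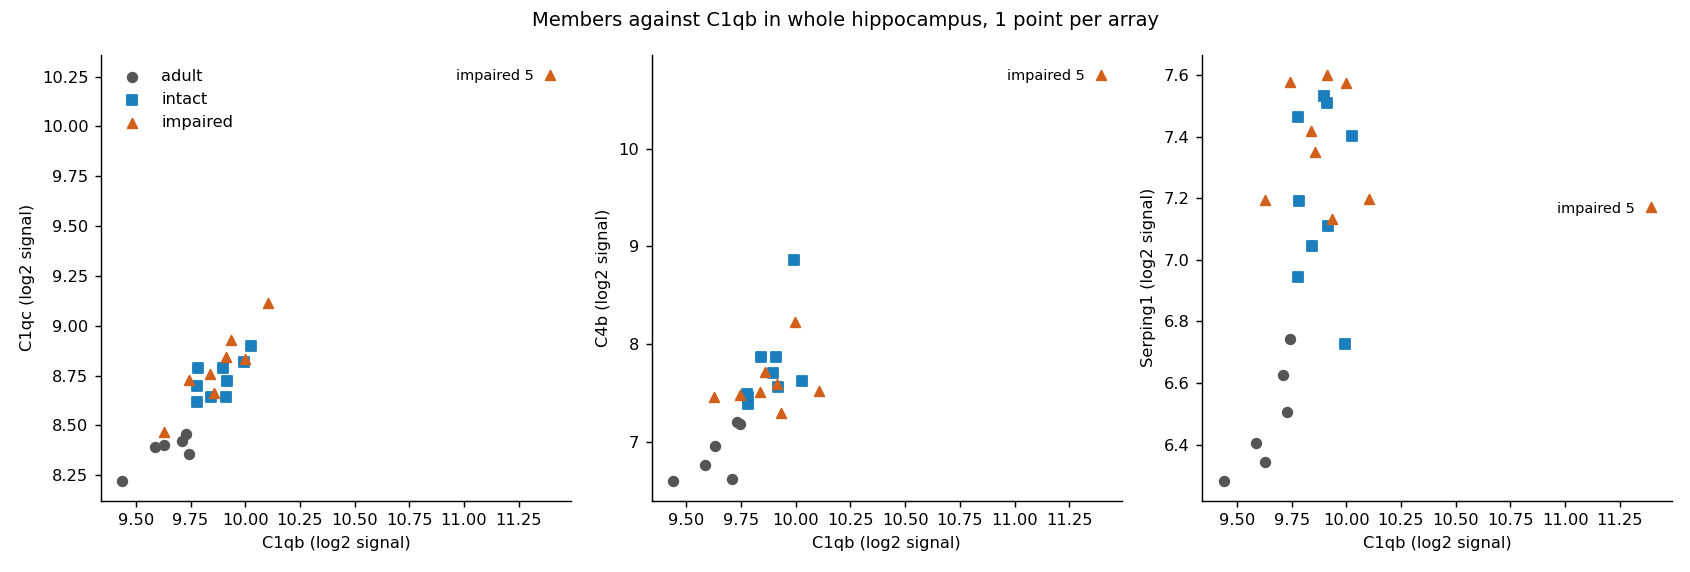
Log2 signal of C1qc, C4b and Serping1 (y axes) against C1qb (x axes) on the 24 whole hippocampus arrays, coloured by group. C1qc and C4b rise with C1qb up to impaired replicate 5 at 11.39, whereas Serping1 on that array is 7.17, within the range of the other impaired arrays.

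The genes whose pattern was most like each member were taken by Pearson r over all 60 arrays, centred within region and slide, among 8562 probes. These r are descriptions, since arrays share slides and age groups. C1qa was most like C1qb (0.93), C1qc (0.91) and Npc2 (0.90), a lysosomal cholesterol carrier, and C1qb was most like the same set, with C1qc at 0.93 and Npc2 at 0.88. C1qc followed C1qb, C1qa and C1qtnf5 (0.90). C4b was most like Fcgr3a (0.86), an Fc receptor gene, and the class II antigen presentation genes Cd74 (0.82) and RT1-Db1 (0.80). Serping1 was most like S100a4 (0.89), a calcium-binding protein gene, C1qtnf9 (0.86) and Ecrg4 (0.86), and no other member was among its nearest 3. C1s was most like Nop53 (0.88), Casp1 (0.87) and Smarcal1 (0.87). C8g reached at most 0.62, with Rps23, and 0.39 for that pair without CA1 adult replicate 4 and whole hippocampus impaired replicate 5. Without these 2 arrays the nearest neighbours of C1qa, C4b and Serping1 gave 0.81, 0.77 and 0.89.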

How the data were processed

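Total RNA was hybridized to Illumina rat bead arrays after biotin labelling, per the labels. The authors deposited a table of mean bead intensity with a detection p-value for each of 22523 probes and 60 arrays, per the file headers; further steps behind it are not given in the sources used here. Another table deposited by the authors holds processed intensity values on a linear scale with values below 0, tried as an alternative. Scale factors behind it are not stated. Its array medians ran from 13.2 to 33.4, and those of the mean bead intensity from 54.5 to 128.

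Intensities were background-corrected, quantile-normalized and turned into log2 values with neqc (offset 16) in limma 3.58.1 under R 4.3.3. A probe entered the test where 4 or more arrays of a subregion, or 6 or more of whole hippocampus, had a detection p under 0.01. Each region was fitted alone with lmFit and eBayes over its 3 groups, with array slide (from the barcode) as a term in whole hippocampus. Aged means the mean of intact and impaired. Two-sided p-values were adjusted by the Benjamini-Hochberg method across every tested probe of a contrast, at a threshold of 0.05. The fits were tested on simulated data. The number of arrays limits the precision, and since no label names separate animals, the tests see the spread among arrays alone, which may be technical. Members of every region and contrast are named, with the 3 genes most like each, called genes of each list and defining markers. The members and lists were chosen with earlier results of these data known. Alternatives were other background correction, scaling, filters, slide terms, a replicate block and leaving out each array. Whether replicate numbers pair samples across subregions was not settled, and no deposited column lacked a sample.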

Additional observations from a re-analysis of the deposited data

Results flagged for a closer look

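A value was singled out where the highest or lowest array of a group of 4 to 10 lay farther from its nearest neighbour than Dixon's 95% limit allows. Of 84 groups (7 members, 4 regions, 3 groups), 9 had such an array; chance flags about 1 in 20 groups. In whole hippocampus, impaired replicate 5 was high for C1qa (10.91), C1qb (11.39), C1qc (10.26) and C4b (10.75), and intact replicate 2 was high for C4b (8.86). In CA1, adult replicate 4 was low for C1qc (5.36) and intact replicate 3 was high for C1qb (10.73). In CA3, adult replicate 2 was low for C1qb (9.61). In DG, intact replicate 1 was low for C1qc (8.28). Whole hippocampus impaired replicate 5 is the array whose removal brought C1qc and C4b past the threshold for age, as given above.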

How the results depend on the processing

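The number of members called for age and its dependence on the processing were as follows. In CA1 it was 1, and it was 0 with the deposited processed values, 0 over probes detected on every array (a filter that left 2 members), 0 with a replicate block, and 5 in 1 fit over all 60 arrays. For all CA1 probes the count of 5 became 1, 3 and 1985 with the detected-on-every-array filter, the replicate block and the 60-array fit. In CA3 the 60-array fit, whose pooled spread includes CA1 adult replicate 4, called 1 member in place of 4 and 12 probes in place of 90, and it called 8 in place of 3 probes in DG and 17 in place of 33 in whole hippocampus. In whole hippocampus the replicate block called 2 members in place of 1 (C4b then differed by 1.52, adjusted p of 0.0292), while within slides 1 and 2, with fewer arrays, 0 and 0 members and 8 and 1 probes were called. Within a region, same-numbered arrays of different age groups did not deviate together on average (mean r of -0.06 in CA1, 0.05 in CA3, -0.19 in DG and -0.01 in whole hippocampus). Such arrays come from different rats, so these r cannot show whether arrays share an animal. The replicate block within a region likewise joins arrays of different rats. Between CA1, CA3 and DG of 1 age group the mean r was 0.07 for same-numbered arrays, with 20 of 36 pairs over 0.1, and -0.02 for others, with 35 of 108. Not every pair was over 0.1, so the numbers were not taken as pairs; with age group and number as a block, an alternative chosen after seeing the data, the region-by-age test still called 0 members. With 1 array left out, members called ran from 0 to 1 in CA1, 2 to 4 in CA3 and 1 to 3 in whole hippocampus, and probes called from 3 to 11, 43 to 89 and 21 to 45. For impaired against intact rats the probes called ran from 0 to 1 in CA3 (1 without impaired replicate 1) and 0 to 1 in whole hippocampus (1 without intact replicate 9), and no member was called in any setting run. Leaving out 1 array turned the sign of small age differences: C1s in CA1 (-0.25 to 0.52), C8g in CA3 (-0.098 to 0.016), and C1qc (-0.077 to 0.11) and C1s (-0.23 to 0.11) in DG. The same held for impaired minus intact in C1s in CA1 (-0.21 to 0.029), C1qc (-0.078 to 0.0025), C1s (-0.064 to 0.10) and C8g (-0.10 to 0.019) in CA3, C1qc in DG (-0.052 to 0.17), and C1qa (-0.076 to 0.19), C1qb (-0.0057 to 0.20) and C4b (-0.15 to 0.32) in whole hippocampus. C1s in CA1 was -0.0071 for age with no background correction and 0.012 for impairment with the deposited processed values, which also gave -0.026 for C1qc in DG. Within slide 1 the impairment difference in whole hippocampus was -0.28 for C1qa, -0.057 for C1qb, -0.015 for C1qc and -0.14 for C4b. Serping1 in CA1 was not called with the deposited processed values (adjusted p of 0.178) or the replicate block (adjusted p of 0.0913). In CA3, C1qb was not called with the deposited processed values (adjusted p of 0.0617) or with no detection filter (adjusted p of 0.0584), C1qc was not called with the replicate block (adjusted p of 0.057), and C1qa, C1qb and C1qc were not called in the 60-array fit. Of 215 age values of single members under other settings 199 kept direction and call, as did 379 of 420 with 1 array left out. These counts include members not called in the main fit that stayed uncalled, so they do not measure how firm the calls were. With 1 array left out, 22 values lost a call. The calls stood in 6 of 12 such fits for Serping1 in CA1, and in CA3 in 3 of 12 for C1qb and 5 of 12 for C1qc. Where no cause is given, the cause was not tested. C8g throughout and Serping1 in DG lay near background, which limits what these arrays can show for them.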
